A study of Saccharomyces cerevisiae with 18 samples.

Results

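Transcript levels of 10 genes of sulfate assimilation and methionine synthesis were followed in budding yeast through the deposited RNA-seq count table. The genes were taken by their systematic names and are 10 of the 6837 identifiers in that table. They are MET3 (YJR010W), MET14 (YKL001C), MET16 (YPR167C), MET5 (YJR137C), MET10 (YFR030W), MET17 (YLR303W), MET2 (YNL277W), MET6 (YER091C), SAM1 (YLR180W) and SAM2 (YDR502C). Polyadenylated RNA of Saccharomyces cerevisiae strain BY4742 was sequenced in a study of chronological aging, in which non-dividing cultures are followed over days. The 6 groups, of 3 libraries each, were bre1Δ at day 4, bre1Δ at day 1, set2Δ at day 4, set2Δ at day 1, wild type (WT) at day 4 and WT at day 1. BRE1 encodes the ubiquitin ligase of histone H2B and SET2 the methyltransferase of lysine 36 of histone H3. All groups share the BY4742 background, a MATα strain without functional HIS3, LEU2, LYS2 and URA3, and none was treated. Cells were grown overnight in YPD, a rich medium, diluted on the next day, and collected at day 1 or day 4. The labels do not say whether the 3 replicates were separate cultures or how many clones each deletion strain comprised, so the p values measure only the spread between these libraries.

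The pathway takes sulfate from outside the cell to methionine and on to S-adenosylmethionine, the methyl donor of the cell. Sulfate is activated with ATP, reduced to sulfite and then to sulfide, and sulfide is joined to a carbon chain made from homoserine. The homocysteine so formed is methylated to methionine, which is then adenylated to S-adenosylmethionine. In yeast most of these genes are under the activator Met4, which reaches DNA through Cbf1 or through the paralogs Met31 and Met32, and which the ubiquitin ligase subunit Met30 restrains when sulfur amino acids are plentiful.

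The windows that hold the letters of these DNA-binding proteins are shown first, because they are the sequence feature that most of the 10 genes share. Because most of these genes were already known to be under Met4, the shares below are descriptions and not an independent test. The 500 bases before each annotated start codon were searched on both strands for CACGTG, the core bound by Cbf1, and for AAACTGTGG, the element bound by Met31 and Met32. CACGTG reads the same on both strands, and the letters of the 2 motifs cannot overlap. CACGTG was found before 9 of the 10 genes, all but SAM1, against 6.21% of the 6019 promoters searched in the same way. AAACTGTGG was found before 4 of the 10 (MET3, MET6, SAM1 and SAM2), against 0.85% of promoters, and both motifs before 3 of the 10 (MET3, MET6 and SAM2), against 0.23%. A match is a description of the letters and does not show that a protein was bound. The windows below run 5′ to 3′ on the strand of the gene, come from the RefSeq R64 assembly of the sacCer3 build, and carry the motif in capitals with up to 15 bases on either side.
MET3 (chrX:455847-456009, forward strand): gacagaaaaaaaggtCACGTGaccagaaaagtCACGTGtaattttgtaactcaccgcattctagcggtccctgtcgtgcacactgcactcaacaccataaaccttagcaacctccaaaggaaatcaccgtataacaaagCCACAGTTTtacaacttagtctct
MET14 (chrXI:439593-439628, reverse strand): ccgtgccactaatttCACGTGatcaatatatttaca
MET16 (chrXVI:877790-877825, reverse strand): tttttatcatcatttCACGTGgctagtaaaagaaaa
MET5 (chrX:683569-683633, reverse strand): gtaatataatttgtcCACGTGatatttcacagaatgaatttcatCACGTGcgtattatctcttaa
MET10 (chrVI:213048-213101, forward strand): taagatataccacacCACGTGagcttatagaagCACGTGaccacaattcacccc
MET17 (chrXII:732227-732262, forward strand): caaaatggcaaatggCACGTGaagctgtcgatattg
MET2 (chrXIV:116981-117016, forward strand): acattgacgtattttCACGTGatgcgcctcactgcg
MET6 (chrV:342451-342667, reverse strand): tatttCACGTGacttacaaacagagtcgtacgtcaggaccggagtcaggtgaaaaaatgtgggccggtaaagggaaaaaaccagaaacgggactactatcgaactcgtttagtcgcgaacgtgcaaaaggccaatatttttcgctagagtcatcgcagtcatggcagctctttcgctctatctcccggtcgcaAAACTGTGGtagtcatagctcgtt
SAM1 (chrXII:514970-515008, forward strand): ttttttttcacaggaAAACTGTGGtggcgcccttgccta
SAM2 (chrIV:1454741-1454802, reverse strand): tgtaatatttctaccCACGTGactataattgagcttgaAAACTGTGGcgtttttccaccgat

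Counted back from the base before the start codon, the first base of CACGTG lay 377 and 360 bases upstream in MET3, 333 and 304 in MET5, and 249 and 231 in MET10, the 3 genes with a pair of sites. It lay 228 bases upstream in MET14, 178 in MET16, 300 in MET17, 353 in MET2, 495 in MET6 and 323 in SAM2. The AAACTGTGG element began 307 bases upstream in MET6, 277 in SAM1 and 300 in SAM2, and in MET3 its reverse complement began 253 bases upstream. The MET17 site lies within YLR302C, an open reading frame on the opposite strand that had at most 17 counts in any library. Of 41 other genes of sulfur metabolism listed below, 17 had CACGTG and 8 had AAACTGTGG in the same window.

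Library totals of the day 4 groups spanned 12500920 to 29514490 counts for bre1Δ, 8038470 to 15752126 for set2Δ and 23158487 to 25763314 for WT. Those of day 1 spanned 14117059 to 23335510 for bre1Δ, 16083744 to 18527701 for set2Δ and 14405784 to 21558268 for WT. BRE1 had 2 reads in all over the 3 bre1Δ libraries of day 4 and 0 over those of day 1, against at least 943 in each library of the other strains. SET2 had 15 reads in all in set2Δ at day 4 and 20 at day 1, against at least 253 in each library of the other strains. URA3, LEU2 and LYS2 had at most 11 counts in any library, while HIS3, of which this strain keeps a part, had 146 to 1784. The MATα genes MF(ALPHA)1 (481 to 26930 counts) and SAG1 (985 to 5074) were read in every library. So were STE2 (259 to 846) and STE6 (296 to 1094), which are known for MATa cells. Replicates 1 and 3 of bre1Δ at day 4 lay nearest to counting error, with a chi-square of 1.52 per gene, where counting error alone gives about 1. The pairs with replicate 2 gave 10.3 and 14.6, and all calls of the 10 genes that involve bre1Δ at day 4 held without replicate 3, and all but 1 (MET5 against set2Δ) without replicate 1. Among all groups the replicate pairs of WT at day 1 gave the highest values, 28.6, 30 and 41. Those of bre1Δ at day 1 gave 14 to 24.9. All values are relative to the other RNA of a library, and in bulk samples fewer cells of a type and less RNA per cell cannot be told apart.

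Levels are given as CPM, the share of a library's counts on a common scale, after TMM scaling, and levels of different genes are set against each other only in FPKM, which also divides by gene length. A gene is called higher or lower where edgeR's quasi-likelihood test gave a Benjamini-Hochberg adjusted p under 0.05 over the 6320 genes tested. All 10 genes passed the filter on low counts. The highest mean was that of bre1Δ at day 4 for 6 of the 10 genes (MET3, MET14, MET16, MET17, MET6 and SAM1), and in each of these its 3 libraries lay above all 15 others. MET5 was highest in set2Δ at day 4, MET10 and MET2 in bre1Δ at day 1, and SAM2 in WT at day 4. Together the 10 genes took 0.1316% ± 0.0076 of all counts in bre1Δ at day 4, 0.0703% ± 0.0022 in bre1Δ at day 1, 0.0523% ± 0.0008 in set2Δ at day 4, 0.0466% ± 0.0007 in set2Δ at day 1, 0.0474% ± 0.0006 in WT at day 4 and 0.0524% ± 0.0045 in WT at day 1 (SD, n = 3 each). The ranges of WT at day 1 and set2Δ at day 4, of WT at day 4 and WT at day 1, and of set2Δ at day 1 and WT at day 4 met or crossed, and no others did. Unlike the CPM levels, these shares were taken from raw counts without TMM scaling, which lowers both deletion strains relative to WT. The day 4 order of set2Δ and WT, and the overlaps between these strains, therefore hold only for the unscaled shares.

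**Figure D1:**
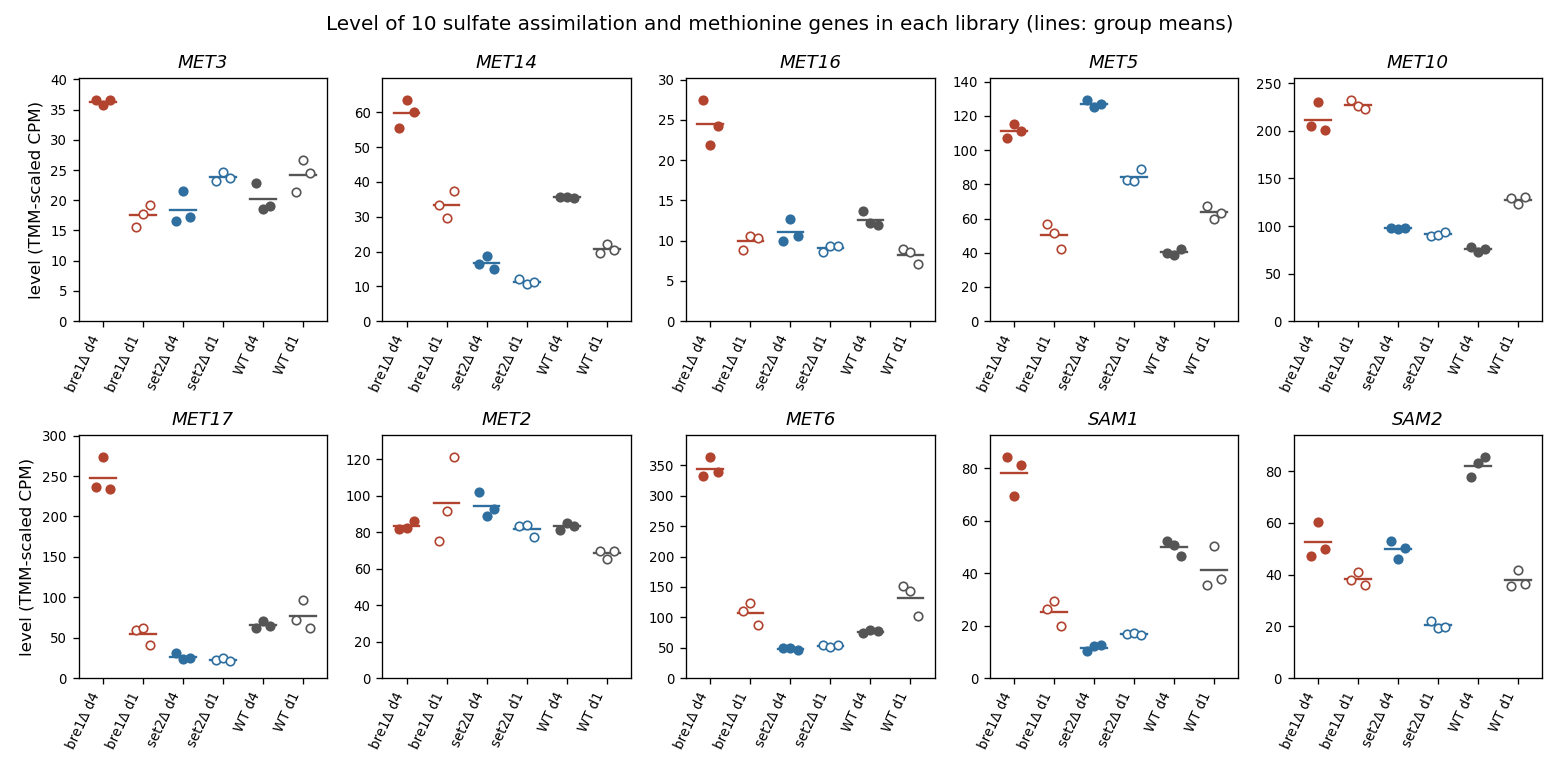
Level of each gene in every library, in TMM-scaled CPM on a linear axis from 0; filled points are day 4, open points day 1, and lines are means of 3 libraries. In 6 of the 10 panels the bre1Δ day 4 libraries stand above all 15 others, MET17 with 234 to 273 CPM being the example with the widest range of means (10.8-fold between the highest and lowest group).

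The sulfate-activating enzymes come first. MET3 (chromosome X, 456239 to 457774, forward strand, 1 coding exon) encodes ATP sulfurylase, which makes adenylyl sulfate. It had 36.5, 35.7 and 36.5 CPM in bre1Δ at day 4 and 15.6, 17.7 and 19.2 CPM in bre1Δ at day 1. In set2Δ it had 16.6, 21.6 and 17.2 CPM at day 4 and 23.2, 24.6 and 23.7 CPM at day 1, and in WT 22.9, 18.6 and 19.0 CPM at day 4 and 21.4, 26.6 and 24.5 CPM at day 1. The bre1Δ libraries of day 4 thus stood alone, while the 2 days of WT overlapped. From day 1 to day 4 MET3 rose in bre1Δ (log2 fold change 1.05 ± 0.10 SE, adjusted p = 8.5e-09) and fell in set2Δ (-0.35 ± 0.11, adjusted p = 0.00696). It was also called lower in WT at day 4 than at day 1 (-0.27 ± 0.10, adjusted p = 0.0236), but that call rests on single libraries: without WT day 1 replicate 2 the adjusted p was 0.135, and without WT day 4 replicate 2 or 3 it was 0.0994 and 0.0824. With only the groups compared the WT call was lost too (adjusted p = 0.0631). At day 4 MET3 was 1.8-fold higher in bre1Δ than in WT, and at day 1 it was lower in bre1Δ (-0.47 ± 0.11), a call lost with scaling by library size only (-0.18, adjusted p = 0.151). Against WT, set2Δ gave -0.11 at day 4 (95% interval -0.34 to 0.12) and -0.03 at day 1 (-0.24 to 0.19), the day 1 value turning to 0.34 (adjusted p = 0.00702) with library size only.

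MET14 (chromosome XI, 438777 to 439385, reverse strand, 1 coding exon) encodes adenylyl sulfate kinase, which adds the second phosphate. It had 55.6, 63.4 and 60.0 CPM in bre1Δ at day 4 and 33.3, 29.6 and 37.4 CPM in bre1Δ at day 1. In set2Δ the values were 16.4, 18.6 and 15.1 CPM at day 4 and 12.2, 10.6 and 11.4 CPM at day 1. In WT they were 35.7, 35.6 and 35.5 CPM at day 4 and 19.5, 22.2 and 20.5 CPM at day 1. The order of the groups was therefore bre1Δ above WT above set2Δ at either day, with no overlap between strains at a given day, and within every strain day 4 stood above day 1. MET14 rose with time by 0.84 ± 0.08 on the log2 scale in bre1Δ, 0.56 ± 0.11 in set2Δ and 0.77 ± 0.09 in WT. Neither deletion's day effect was past the threshold against that of WT (bre1Δ minus WT 0.07, adjusted p = 0.622, and set2Δ minus WT -0.22, adjusted p = 0.169). The set2Δ minus WT value became -0.33 (adjusted p = 0.0499) with library size only. Between strains it was higher in bre1Δ than in WT (0.75 ± 0.08 at day 4 and 0.68 ± 0.09 at day 1) and lower in set2Δ than in WT (-1.09 ± 0.10 and -0.87 ± 0.10).

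MET16 (chromosome XVI, 876847 to 877632, reverse strand, 1 coding exon) encodes the reductase that releases sulfite. It had 27.4, 21.9 and 24.2 CPM in bre1Δ at day 4 and 8.89, 10.6 and 10.3 CPM in bre1Δ at day 1. The set2Δ libraries had 10.0, 12.7 and 10.6 CPM at day 4 and 8.6, 9.29 and 9.37 CPM at day 1, and those of WT 13.7, 12.2 and 11.9 CPM at day 4 and 8.91, 8.53 and 7.07 CPM at day 1. Apart from bre1Δ at day 4, each group overlapped with its neighbour in the order of levels. MET16 was higher at day 4 in bre1Δ (1.30 ± 0.11, adjusted p = 1.35e-09) and in WT (0.63 ± 0.12, adjusted p = 0.000105). In set2Δ the call (0.30 ± 0.13, adjusted p = 0.0377) rests on single libraries, with adjusted p = 0.258 without day 4 replicate 2 and 0.0536 to 0.107 without 1 of the 3 libraries of day 1. That call was also lost with library size only (adjusted p = 0.164) and with upper quartile scaling (adjusted p = 0.269). The rise in bre1Δ exceeded that in WT by 0.67 ± 0.17 (adjusted p = 0.00112), and at day 4 bre1Δ was 1.95-fold above WT. Other strain differences were not past the threshold: bre1Δ against WT at day 1 gave 0.29 (adjusted p = 0.0503), and set2Δ against WT gave -0.17 at day 4 and 0.16 at day 1. With library size only, both day 1 values were called higher (0.58 in bre1Δ and 0.52 in set2Δ).

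MET5 (chromosome X, 678957 to 683285, reverse strand, 1 coding exon) and MET10 (chromosome VI, 213312 to 216419, forward strand, 1 coding exon) encode the beta and alpha subunits of sulfite reductase, which makes sulfide. Although they belong to 1 enzyme, their profiles over the groups differed. MET5 had 107, 115 and 111 CPM in bre1Δ at day 4 and 57.0, 51.7 and 42.1 CPM in bre1Δ at day 1. It had 129, 125 and 127 CPM in set2Δ at day 4 and 82.3, 82.2 and 88.7 CPM in set2Δ at day 1, and 39.8, 38.7 and 42.4 CPM in WT at day 4 against 67.5, 60.0 and 63.1 CPM in WT at day 1. Day 4 thus lay above day 1 in both deletion strains and below it in WT, without overlap. MET5 rose in bre1Δ (1.14 ± 0.08) and set2Δ (0.59 ± 0.07) and fell in WT (-0.65 ± 0.08), so that the day effect was larger than that of WT by 1.80 ± 0.11 in bre1Δ (adjusted p = 4.37e-12) and 1.24 ± 0.11 in set2Δ (adjusted p = 1.49e-09). At day 4 it was 2.75-fold higher in bre1Δ than in WT and 3.14-fold higher in set2Δ than in WT. It is the only one of the 10 genes called lower in bre1Δ than in set2Δ at day 4 (-0.19 ± 0.07, adjusted p = 0.0199), a call lost without bre1Δ day 4 replicate 1 (adjusted p = 0.0739) and with upper quartile scaling (adjusted p = 0.0701). At day 1 MET5 was higher in set2Δ than in WT (0.41 ± 0.08) and lower in bre1Δ than in WT (-0.34 ± 0.08), the bre1Δ call being lost with library size only (-0.04, adjusted p = 0.66).

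MET10 had 205, 230 and 201 CPM in bre1Δ at day 4 and 232, 226 and 223 CPM in bre1Δ at day 1. In set2Δ it had 97.8, 96.5 and 98.4 CPM at day 4 and 89.1, 90.9 and 93.7 CPM at day 1, and in WT 78.1, 72.7 and 75.9 CPM at day 4 and 129, 123 and 131 CPM at day 1. Both bre1Δ groups therefore lay above all libraries of the other strains, and they overlapped each other. MET10 was 2.8-fold higher in bre1Δ than in WT at day 4 and 1.78-fold higher at day 1. It fell with time in WT (-0.76 ± 0.05, adjusted p = 2.47e-11), whereas day 4 against day 1 gave -0.10 in bre1Δ (95% interval -0.20 to 0.0049) and 0.10 in set2Δ (-0.01 to 0.21). Without bre1Δ day 4 replicate 2 the bre1Δ value was -0.16 and was called lower (adjusted p = 0.00362). Relative to WT the day effect was higher by 0.66 ± 0.07 in bre1Δ and 0.85 ± 0.07 in set2Δ. In set2Δ MET10 was lower than in WT at day 1 (-0.48 ± 0.05), a call lost with scaling by library size only (-0.12, adjusted p = 0.0554), and higher at day 4 (0.37 ± 0.05).

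The ratio of MET5 to MET10, taken within each library in FPKM and so free of scaling between libraries, was 0.377 ± 0.0205 in bre1Δ at day 4 and 0.159 ± 0.0213 in bre1Δ at day 1. It was 0.933 ± 0.00984 in set2Δ at day 4 and 0.664 ± 0.0151 in set2Δ at day 1, and 0.383 ± 0.0178 in WT at day 4 and 0.357 ± 0.0168 in WT at day 1 (SD, n = 3 each). Every library of set2Δ had a higher ratio than every library of bre1Δ and WT, and every library of bre1Δ at day 1 a lower ratio than all others. At day 4 the ranges of bre1Δ (0.357 to 0.398) and WT (0.366 to 0.401) overlapped each other, and both overlapped that of WT at day 1 (0.345 to 0.377). These ratios were chosen for description after the levels were known, and were not tested.

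**Figure D2:**
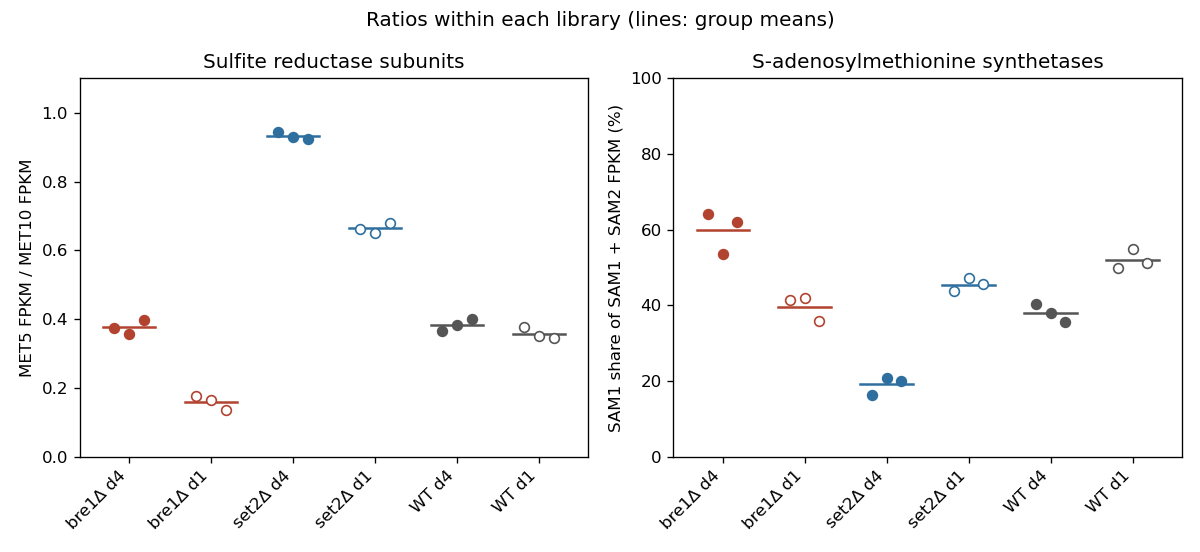
Left, ratio of MET5 to MET10 FPKM in each library; right, SAM1 as a percentage of the summed FPKM of SAM1 and SAM2; filled points are day 4, open points day 1, and lines are means of 3 libraries. The subunit ratio is highest in set2Δ at day 4 (0.925 to 0.944), and the day 4 share of SAM1 spans 53.6% to 64.1% for bre1Δ, 16.3% to 20.9% for set2Δ and 35.5% to 40.4% for WT.

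The carbon chain that takes up sulfide is made by MET2 (chromosome XIV, 117349 to 118809, forward strand, 1 coding exon), the homoserine O-acetyltransferase. MET2 varied least of the 10, with a highest group mean 1.4 times the lowest. It had 81.6, 82.1 and 86.0 CPM in bre1Δ at day 4 and 75.3, 91.9 and 121 CPM in bre1Δ at day 1, the group in which its replicates spread most. In set2Δ it had 102, 88.8 and 92.6 CPM at day 4 and 83.7, 83.8 and 77.6 CPM at day 1, and in WT 81.5, 85.3 and 83.4 CPM at day 4 and 69.6, 65.6 and 70.0 CPM at day 1. All libraries of WT at day 1 lay below all others. MET2 was called higher in WT at day 4 than at day 1 (0.29 ± 0.10, adjusted p = 0.0163), but not without WT day 1 replicate 2 (adjusted p = 0.0605) and not with upper quartile scaling (adjusted p = 0.142). At day 1 it was higher in bre1Δ than in WT (0.49 ± 0.10, adjusted p = 0.000273) and in set2Δ than in WT (0.26 ± 0.10, adjusted p = 0.0302). The set2Δ call was lost without WT replicate 1 or 2 (adjusted p = 0.05 and 0.0955) and without set2Δ replicate 1 or 2 (adjusted p = 0.074 and 0.0799). At day 4 bre1Δ against WT gave -0.0005 (95% interval -0.21 to 0.21), which turned to 0.27 (adjusted p = 0.0173) with library size only. Day 4 against day 1 in bre1Δ gave -0.20 (adjusted p = 0.0763), and -0.35 (adjusted p = 0.000827) without bre1Δ day 1 replicate 1.

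MET17 (chromosome XII, 732542 to 733876, forward strand, 1 coding exon) encodes O-acetylhomoserine sulfhydrylase, which joins sulfide to the product of MET2. This gene is intact in BY4742, unlike in the sister strain BY4741. MET17 had 236, 273 and 234 CPM in bre1Δ at day 4 and 60.1, 61.5 and 40.9 CPM in bre1Δ at day 1. It had 31.2, 23.5 and 25.0 CPM in set2Δ at day 4 and 22.4, 24.8 and 21.3 CPM in set2Δ at day 1, and 62.1, 71.2 and 64.9 CPM in WT at day 4 and 72.6, 96.4 and 62.1 CPM in WT at day 1. The bre1Δ libraries of day 4 were above and all 6 set2Δ libraries below every library of the other groups. MET17 rose 4.55-fold with time in bre1Δ (log2 fold change 2.19 ± 0.14, adjusted p = 7.96e-12), against 0.19 in set2Δ (95% interval -0.16 to 0.54) and -0.23 in WT (-0.52 to 0.06). Without WT day 1 replicate 3 the WT value was -0.37 and was called lower (adjusted p = 0.0192). The difference between the day effects of bre1Δ and WT was 2.42 ± 0.19 (adjusted p = 4.01e-10). At day 4 MET17 was 3.74-fold higher in bre1Δ and 2.53-fold lower in set2Δ than in WT, and bre1Δ exceeded set2Δ 9.48-fold. At day 1 it was 3.38-fold lower in set2Δ than in WT (adjusted p = 1.18e-09) and 1.42-fold lower in bre1Δ (adjusted p = 0.00286), the bre1Δ call being lost with scaling by library size only (-0.22, adjusted p = 0.18). Per length, MET17 reached 195 FPKM in bre1Δ at day 4, rank 937 of 6320 genes, against 19.2 FPKM and rank 5210 in set2Δ at day 1.

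MET6 (chromosome V, 339864 to 342167, reverse strand, 1 coding exon) encodes the cobalamin-independent methionine synthase. It had 332, 363 and 339 CPM in bre1Δ at day 4 and 111, 123 and 87.0 CPM in bre1Δ at day 1. In set2Δ it had 49.0, 49.5 and 46.5 CPM at day 4 and 54.1, 51.7 and 55.4 CPM at day 1, and in WT 74.4, 78.8 and 77.1 CPM at day 4 and 152, 143 and 103 CPM at day 1. As for MET17, bre1Δ at day 4 lay above every other library and the 6 set2Δ libraries lay below all others. From day 1 to day 4 MET6 rose 3.22-fold in bre1Δ (1.69 ± 0.11, adjusted p = 1.15e-11) and fell 1.73-fold in WT (-0.79 ± 0.11, adjusted p = 1.62e-06), while set2Δ gave -0.15 (95% interval -0.41 to 0.10). The day effects of bre1Δ and WT differed by 2.47 ± 0.16, the widest such difference among the 10 genes, and those of set2Δ and WT by 0.64 ± 0.16 (adjusted p = 0.00171). At day 4 MET6 was 4.49-fold higher in bre1Δ than in WT and 1.59-fold lower in set2Δ than in WT. At day 1 it was 2.47-fold lower in set2Δ than in WT. The lower call for bre1Δ against WT at day 1 (-0.31 ± 0.11, adjusted p = 0.0164) was lost with scaling by library size only (-0.01, adjusted p = 0.914), without WT replicate 1 or 2 (adjusted p = 0.119 and 0.0807) and without bre1Δ replicate 3 (adjusted p = 0.126).

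SAM1 (chromosome XII, 515262 to 516410, forward strand, 1 coding exon) and SAM2 (chromosome IV, 1453310 to 1454464, reverse strand, 1 coding exon) encode paralogous S-adenosylmethionine synthetases. Their coding sequences are identical at 83.2% of 1149 aligned bases, and 1.82% of the 50-base windows of SAM1 and 1.81% of those of SAM2 also occur in the other gene, so a small part of their reads could be split or lost in counting. SAM1 had 84.2, 69.6 and 81.3 CPM in bre1Δ at day 4 and 26.5, 29.5 and 20 CPM in bre1Δ at day 1. In set2Δ it had 10.2, 12.1 and 12.6 CPM at day 4 and 17.0, 17.3 and 16.5 CPM at day 1, and in WT 52.5, 50.7 and 46.7 CPM at day 4 and 35.5, 50.6 and 38.0 CPM at day 1. At day 4 the libraries of bre1Δ lay above and those of set2Δ below those of WT, without overlap. SAM1 rose 3.08-fold with time in bre1Δ (1.62 ± 0.12, adjusted p = 1.26e-10) and fell 1.43-fold in set2Δ (-0.52 ± 0.16, adjusted p = 0.00565), while WT gave 0.26 (adjusted p = 0.0521), and 0.44 (adjusted p = 0.00188) without WT day 1 replicate 2. Both day effects differed from that of WT, by 1.36 ± 0.17 in bre1Δ and -0.78 ± 0.20 in set2Δ. At day 4 SAM1 was 1.57-fold higher in bre1Δ than in WT, 4.23-fold lower in set2Δ than in WT and 6.65-fold higher in bre1Δ than in set2Δ. At day 1 it was lower than in WT in bre1Δ (-0.71 ± 0.13) and in set2Δ (-1.30 ± 0.13).

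SAM2 followed another order. It had 47.3, 60.5 and 50.1 CPM in bre1Δ at day 4 and 37.8, 41.1 and 35.9 CPM in bre1Δ at day 1. The set2Δ libraries had 53.0, 46.0 and 50.5 CPM at day 4 and 22.1, 19.4 and 19.7 CPM at day 1, and the WT libraries 77.7, 83.3 and 85.3 CPM at day 4 and 35.8, 41.9 and 36.5 CPM at day 1. WT at day 4 lay above all others, and day 4 lay above day 1 in each strain. SAM2 rose with time by 0.45 ± 0.09 in bre1Δ, 1.28 ± 0.09 in set2Δ and 1.1 ± 0.09 in WT, and the rise was smaller in bre1Δ than in WT (-0.65 ± 0.12, adjusted p = 6.07e-05). At day 4 it was lower than in WT in both bre1Δ (-0.65 ± 0.08) and set2Δ (-0.73 ± 0.09). At day 1 it was lower in set2Δ (-0.91 ± 0.09), while bre1Δ gave 0.01 (95% interval -0.18 to 0.19), and 0.30 (adjusted p = 0.00781) with library size only. Of the summed FPKM of both synthetases, SAM1 made up 59.9% ± 5.56 in bre1Δ at day 4 and 39.7% ± 3.33 in bre1Δ at day 1. The share was 19.1% ± 2.48 in set2Δ at day 4 and 45.5% ± 1.79 in set2Δ at day 1, and 38.0% ± 2.47 in WT at day 4 and 51.9% ± 2.55 in WT at day 1 (SD, n = 3 each). The share was thus higher at day 4 than at day 1 in bre1Δ and lower at day 4 in the other strains, with no overlap between days in any strain.

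Over the members as a whole, the day effect was widest in bre1Δ. There 8 of 10 genes were higher at day 4 and 0 lower, where 37.9% of all genes tested were higher and 38.4% lower; with library size only or upper quartile scaling, MET10 and MET2 were also called lower. At least 2-fold higher were 6 of the 10 (MET3, MET16, MET5, MET17, MET6 and SAM1), against 9.92% of all genes, and the median log2 fold change was 1.1, against -0.02 over all genes. In set2Δ 4 genes were higher at day 4 (MET14, MET16, MET5 and SAM2) and 2 lower (MET3 and SAM1), against 34.3% and 37.3% of all genes. In WT 4 were higher (MET14, MET16, MET2 and SAM2) and 4 lower (MET3, MET5, MET10 and MET6), against 37.2% and 40.5%. Both counts moved with the setting. In set2Δ they were 6 higher and 2 lower with median of ratios scaling or DESeq2, 6 and 3 with only the groups compared, 3 and 2 with library size only and 3 and 3 with upper quartile scaling. In WT they were 5 higher and 4 lower with median of ratios scaling, 5 and 3 with only the groups compared and 3 and 5 with upper quartile scaling. Against the day effect of WT, that of bre1Δ was higher for 7 genes and lower for 2 (MET2 and SAM2), against 40% and 36.9% of all genes. That of set2Δ was higher for 3 genes (MET5, MET10 and MET6) and lower for 1 (SAM1), against 34.8% and 37.9%. This split was 3 higher and 3 lower with library size only or limma on FPKM, where MET14 and MET16 were also called lower. With the replicate block or only the groups compared it was 4 higher and 1 lower. These last 2 comparisons share the WT libraries.

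**Figure D3:**
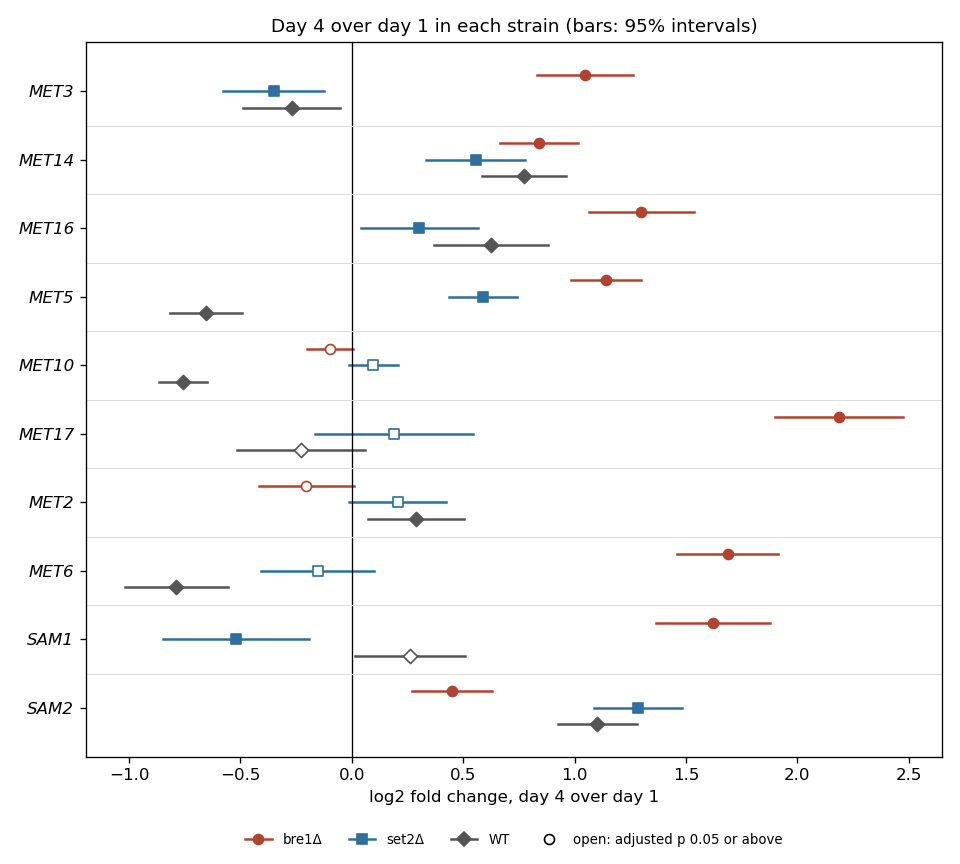
Log2 fold change of day 4 over day 1 for each gene in bre1Δ (circles), set2Δ (squares) and WT (diamonds), with 95% intervals from the edgeR fit; open symbols did not pass an adjusted p of 0.05. The bre1Δ values reach 2.19 for MET17, 1.69 for MET6 and 1.62 for SAM1, where the WT values are -0.23, -0.79 and 0.26.

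Set against WT at day 4, bre1Δ was higher for 8 of the 10 genes and lower for SAM2 alone, where 44.8% of all genes were higher and 41.6% lower. The difference was at least 2-fold for 4 of them (MET5, MET10, MET17 and MET6), against 18.9% of all genes, and the median was 0.90, against 0.04 over all genes. At day 1 bre1Δ was higher than WT for 3 genes (MET14, MET10 and MET2) and lower for 5 (MET3, MET5, MET17, MET6 and SAM1), against 35.8% and 35.8%. That split depended on scaling: with library size only, where the median of all genes in this comparison was 0.32 in place of 0.02, it was 5 higher and 1 lower, SAM1 being the 1 that held. The set2Δ strain was higher than WT for MET5 and MET10 at day 4 and lower for 5 genes (MET14, MET17, MET6, SAM1 and SAM2), against 34.7% and 44% of all genes. At day 1 it was higher for MET5 and MET2 and lower for 6 (MET14, MET10, MET17, MET6, SAM1 and SAM2), against 37.9% and 39.5%. With library size only these splits were 3 higher and 5 lower at day 4, and 4 higher and 5 lower at day 1, where the median of all genes was 0.35 in place of -0.01. MET14, MET17, MET6, SAM1 and SAM2 stayed lower in set2Δ than in WT at both days under each of the 27 alternative settings. The comparisons of bre1Δ and of set2Δ with WT at 1 day share the WT libraries.

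**Figure D4:**
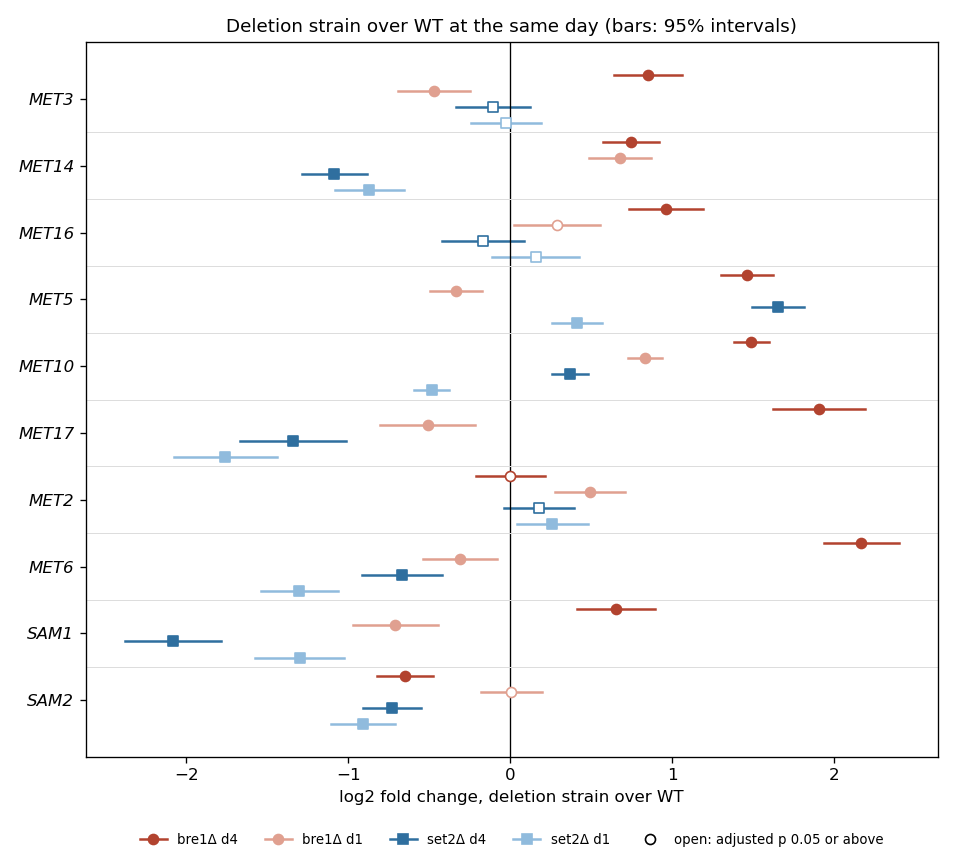
Log2 fold change of bre1Δ (circles) and set2Δ (squares) over WT at day 4 (dark) and day 1 (light), with 95% intervals from the edgeR fit; open symbols did not pass an adjusted p of 0.05. MET17, MET6 and SAM1 lie right of 0 in bre1Δ at day 4 (1.90, 2.17 and 0.65) and left of 0 in the other 3 comparisons.

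The deletion strains were also compared with each other. At day 4 bre1Δ was higher than set2Δ for 7 genes and lower for MET5, where 42.5% of all genes were higher and 41.6% lower. The difference was at least 2-fold for 6 of the 7, all but MET3, against 18.3% of all genes, and was widest for MET17 (9.48-fold), MET6 (7.13-fold) and SAM1 (6.65-fold). SAM2 did not pass the threshold (0.08, 95% interval -0.10 to 0.27), nor did MET2 (-0.18, -0.39 to 0.04). At day 1 bre1Δ was higher for 7 genes and lower for MET3 (-0.44 ± 0.11) and MET5 (-0.75 ± 0.08), against 39.4% and 40% of all genes. MET14 (2.92-fold), MET10 (2.49-fold) and MET17 (2.37-fold) led that list. The call for MET2 at day 1 (0.23 ± 0.10, adjusted p = 0.0424) rests on single libraries, with adjusted p = 0.0599 to 0.619 without any 1 of set2Δ replicates 1, 2 and 3 or bre1Δ replicates 2 and 3. That call was also lost with library size only (adjusted p = 0.141), upper quartile scaling (0.126) and only the groups compared (0.124).

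The other genes of sulfur metabolism, 41 genes in 6 lists, were read in the same fit. Among the regulators MET28, a cofactor of Met4, had at most 24 counts in any library and was not tested. MET30, the inhibitory ubiquitin ligase subunit, averaged 252 ± 21.2 CPM in bre1Δ at day 4 and 429 ± 47.4 CPM in bre1Δ at day 1, 447 ± 47.7 and 271 ± 6.2 CPM in set2Δ at day 4 and day 1, and 857 ± 35.2 and 238 ± 10.3 CPM in WT at day 4 and day 1 (SD, n = 3 each). It thus fell with time in bre1Δ (-0.76 ± 0.08) and rose in set2Δ (0.72 ± 0.08) and WT (1.85 ± 0.08), a day effect lower than that of WT by 2.62 ± 0.11 on the log2 scale in bre1Δ and 1.13 ± 0.11 in set2Δ. MET4, the activator, rose with time by 0.54 ± 0.06 in bre1Δ, 0.43 ± 0.06 in set2Δ and 0.85 ± 0.06 in WT. MET32 also rose in all 3 strains (0.75 ± 0.13, 1.27 ± 0.14 and 0.54 ± 0.14 in the same order). MET31 rose in bre1Δ (0.41 ± 0.08) and fell in set2Δ (-0.46 ± 0.08) and WT (-0.28). CBF1 gave 0.05 in bre1Δ (adjusted p = 0.537) and fell in set2Δ (-0.21) and WT (-0.71 ± 0.07), the set2Δ call being lost without day 1 replicate 1 or without day 4 replicate 2 or 3.

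With time in bre1Δ, where 37.9% of all genes were higher and 38.4% lower, all 5 genes of sulfate uptake, siroheme synthesis and removal of PAP (phosphoadenosine phosphate) were higher. Among them were the sulfate permease gene SUL1 (1.08 ± 0.07), the phosphatase gene MET22 (0.73) and MET8 of siroheme synthesis (0.71 ± 0.09). MET1 (0.15, adjusted p = 0.0287) lost its call with library size only or upper quartile scaling, and without bre1Δ day 4 replicate 1 or 3 or day 1 replicate 1 or 3. Of 10 genes of homoserine supply and the methyl cycle, 8 were higher and 1 lower, led by the aspartate kinase gene HOM3 (1.5 ± 0.10), the S-adenosylhomocysteine hydrolase gene SAH1 (1.36 ± 0.08), HOM2 (1.26 ± 0.07) and the adenosine kinase gene ADO1 (0.88 ± 0.11). The 6 genes of transsulfuration and glutathione divided, with 3 higher and 3 lower; the cystathionine lyase genes CYS3 (2.11 ± 0.11) and STR3 (1.96 ± 0.09) and the cystathionine synthase gene CYS4 (0.51) rose while GSH1 of glutathione synthesis fell (-0.27 ± 0.05). Among 5 genes of uptake of sulfur amino acids 3 were higher, including the cysteine transporter gene YCT1 (1.00 ± 0.06) and MMP1 (0.93), and SAM3 was lower (-0.87 ± 0.08). Methionine salvage and the use of S-adenosylmethionine showed 3 of 9 higher and 2 lower, with OPI3 of phospholipid methylation at -0.86 ± 0.07. Of these 3, MEU1 (0.17, adjusted p = 0.0335) lost its call without any 1 of the bre1Δ day 4 libraries, without bre1Δ day 1 replicate 1, and with library size only, upper quartile scaling or DESeq2. The medians of these lists were 0.71, 0.74, 0.14, 0.69 and 0.09 in that order, beside -0.02 over all genes.

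The same lists were read in WT, where 37.2% of all genes were higher and 40.5% lower at day 4. They gave 2 of 5 genes higher for sulfate uptake, siroheme and PAP removal. Homoserine and the methyl cycle gave 3 higher and 5 lower of 10 (1 higher and 6 lower with upper quartile scaling). Transsulfuration and glutathione gave 2 higher and 3 lower of 6. Methionine salvage and the use of S-adenosylmethionine gave 1 higher and 7 lower of 9 in WT. The median of that list was -0.56, beside -0.02 over all genes. Uptake of sulfur amino acids gave 3 higher and 1 lower of 5. In that list the methionine permease genes MUP1 (1.96 ± 0.12) and MUP3 (2.88 ± 0.07) rose with time in WT, and MMP1 fell (-1.03). MUP3 averaged 22.9 ± 1.32 CPM in bre1Δ at day 4, 137 ± 10.9 CPM in set2Δ at day 4 and 143 ± 5.28 CPM in WT at day 4 (SD, n = 3 each), and was lower in bre1Δ than in WT by 2.65 ± 0.07 on the log2 scale. At day 4 against WT, 44.8% of all genes were higher in bre1Δ and 41.6% lower. There bre1Δ had 8 of 10 genes of homoserine supply and the methyl cycle higher and 2 lower, with HOM3 at 1.77 ± 0.10, ADO1 at 1.53 ± 0.11 and SAH1 at 1.41 ± 0.08. Of 5 genes of sulfate uptake, siroheme and PAP removal, 4 were higher, with SUL1 at 1.47 ± 0.07, and SUL2 was lower. In FPKM, without TMM scaling, SUL2 averaged 24.8 in both groups. Transsulfuration and glutathione gave 2 higher and 3 lower of 6, and uptake of sulfur amino acids 2 higher and 3 lower of 5. Their medians were -0.04 and -0.43, beside 0.04 over all genes. The first of these splits depended on scaling. Without TMM scaling GSH2, called lower, averaged 58.2 FPKM in bre1Δ and 57.5 FPKM in WT. STR3, not called, averaged 76.2 and 56.4 FPKM in the same order. Methionine salvage and the use of S-adenosylmethionine gave 7 higher and 2 lower of 9. In set2Δ at day 4, 34.7% of all genes were higher than in WT and 44% lower. There 7 of the 10 homoserine and methyl cycle genes were lower than in WT, with HOM2 at -1.31 ± 0.07 and SAH1 at -1.28 ± 0.09. Of the 5 genes of sulfate uptake, siroheme and PAP removal, 4 were higher, with MET1 at 0.87 ± 0.06 and SUL1 at 0.83 ± 0.07. All 6 genes of transsulfuration and glutathione were lower in set2Δ than in WT at day 4, and likewise at day 1 (39.5% of all genes), but with library size only 3 of 6 and 2 of 6 were. In bre1Δ at day 1 the same list was 0 higher and 6 lower against WT (35.8% of all genes in either direction), and 2 higher and 3 lower with library size only.

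**Figure D5:**
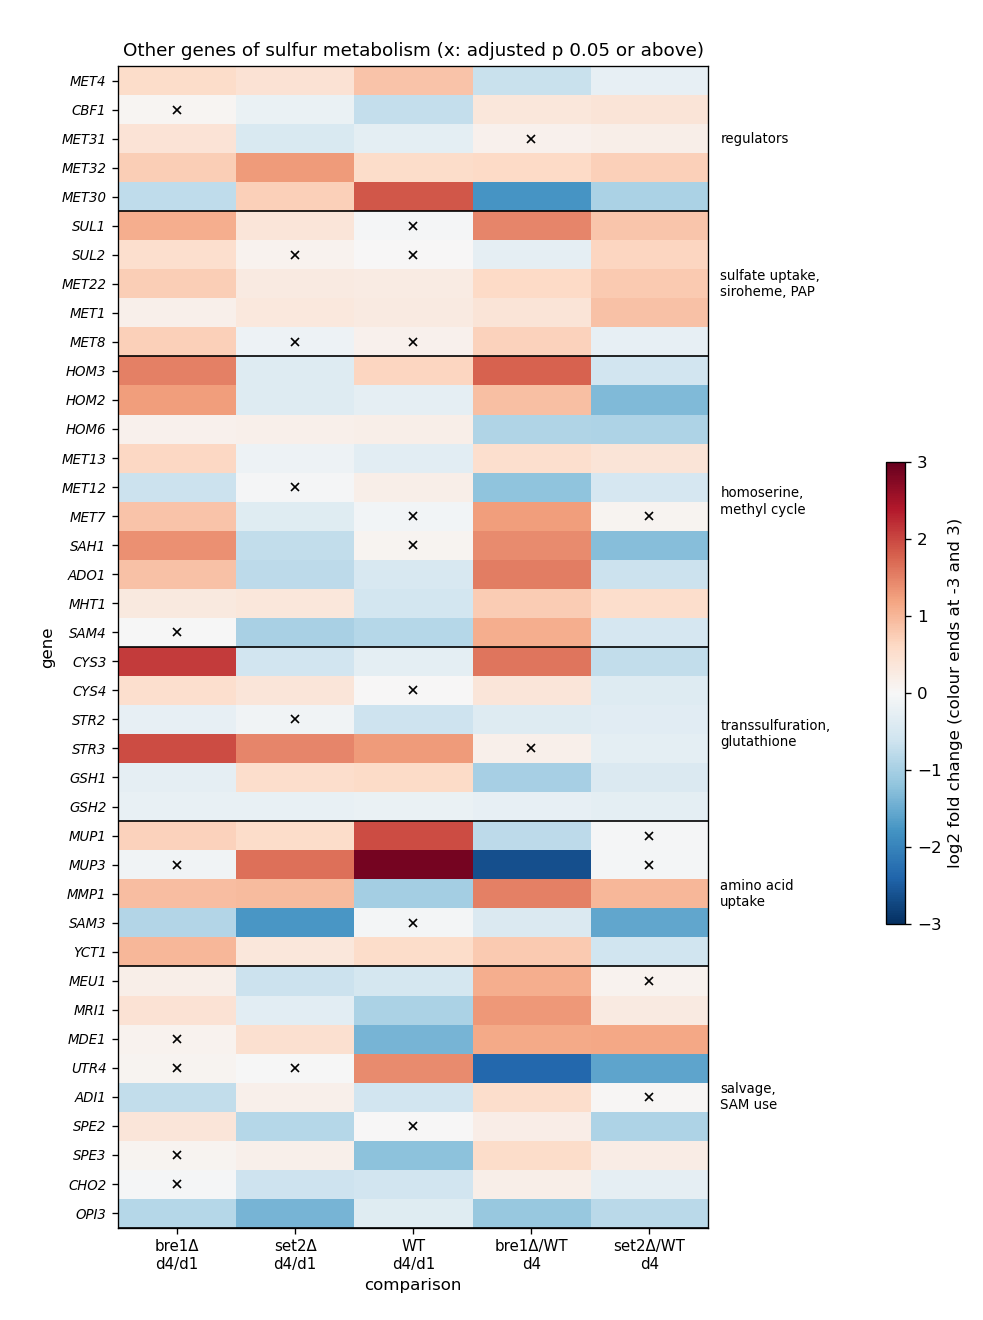
Log2 fold changes of the 40 tested genes outside the 10, grouped by list, for day 4 over day 1 in bre1Δ, set2Δ and WT and for each deletion over WT at day 4; crosses mark the 27 values that did not pass an adjusted p of 0.05. CYS3, HOM3 and SAH1 are red in the bre1Δ column of day effects (2.11, 1.5 and 1.36), and MET30 and MUP3 are blue for bre1Δ over WT (-1.76 and -2.65).

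Across the 6 group means, pairs of the 10 genes had Pearson correlations of -0.46 to 0.96 with a median of 0.41, and 35 of 45 pairs were positive. These are descriptions over 6 points that share libraries and scaling. The closest pairs were MET17 with MET6 (0.964) and MET17 with SAM1 (0.927), and the paralogs SAM1 and SAM2 reached 0.481. MET5 and MET10 had 0.105, and MET2 was negative with MET17 (-0.284), MET6 (-0.296) and SAM1 (-0.455). The mean profile of the 10 was most like that of MST1 (0.996), RPS28B (0.995), YJL043W (0.994), ADD37 (0.988), STT3 (0.985), YOR387C (0.984), OST3 (0.982), SBH1 (0.975), HSP150 (0.974) and SEC59 (0.974) among 5355 other genes with at least 20 CPM in their highest group. Of those 5355 genes, 163 had a correlation of at least 0.9, so the likeness is shared by many genes. The 10 genes that make up the mean followed it unequally, from 0.048 (MET2) and 0.208 (MET5) to 0.927 (MET17). In the lists of sulfur metabolism the closest were YCT1 (0.970), MET8 (0.936), HOM3 (0.905) and SAH1 (0.870), while the regulators MET4 (-0.066), CBF1 (-0.308), MET31 (-0.396) and MET30 (-0.152) were near or below 0 and MET32 had 0.577.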

How the data were processed

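Polyadenylated RNA of 18 libraries was sequenced, and 1 table of raw read counts per gene and 1 of FPKM were deposited by the authors. Both have 1 column per library, and 4 of their lines are blank here and were not used. Per the submitters' processing notes, FastQC 0.11.8, cutadapt 2.6, STAR 2.7.0b, HTSeq 2.0.2, R 4.2.0 and DESeq2 1.36.0 were used with the sacCer3 build; their roles and the strand setting are not given in the sources used here, so overlapping antisense reads cannot be told apart.

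Deposited counts were fitted with edgeR 4.0.16 in R 4.3.3 (TMM scaling, filterByExpr, quasi-likelihood test, two-sided) as 6 groups over all 18 libraries, with 11 comparisons. In each comparison the Benjamini-Hochberg adjustment ran over 6320 genes, with 0.05 as threshold. The FPKM deposited by the authors served for levels between genes, for ratios and, as log2(FPKM + 1) or log2(FPKM + 0.1), for limma 3.58.1. TMM factors ran from 0.857 to 0.892 in WT and 1.033 to 1.138 in the deletion strains. Alternatives were other scalings, no filter, DESeq2 1.42.0, only the groups compared, a replicate block and each library left out in turn. The fit was tested on simulated data.

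Genes were matched by locus tag to RefSeq R64 (5926 of 6837 identifiers). The 10 genes and the pathway lists were chosen with earlier results of these data known. All 10 genes were named, with the regulators and, in each comparison and list, genes from among the 4 with the widest called change. MET1 and MEU1 in bre1Δ, day 4 against day 1, were named after their values were seen. So were GSH2 and STR3 in bre1Δ against WT at day 4. Likeness is Pearson's r over 6 group means of log2 CPM.

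Same-numbered libraries of different groups had correlated deviations from their group means of -0.164 to 0.274. All 3 exceeded 0.1 in 1 of 15 pairs of groups, bre1Δ and WT at day 1 (0.129 to 0.137), where the replicate block changed none of the 10 calls.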

Additional observations from a re-analysis of the deposited data

Results flagged for a closer look

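The change between day 4 and day 1 differed between each of 2 deletion strains and WT by an interaction term of the edgeR fit for the following genes, and that test is what marked them. For bre1Δ minus WT the log2 differences were 1.32 for MET3, 0.67 for MET16, 1.80 for MET5, 0.66 for MET10, 2.42 for MET17, -0.49 for MET2, 2.47 for MET6, 1.36 for SAM1 and -0.65 for SAM2. For set2Δ minus WT they were 1.24 for MET5, 0.85 for MET10, 0.64 for MET6 and -0.78 for SAM1. All 13 were called under each of the 27 alternative settings. Groups of 3 libraries were not tested for outlying libraries.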

How the results depend on the processing

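Under 27 alternative settings, 2850 of 2970 values of the 10 genes counted as unchanged. Of the rest, 53 lost a call, 61 gained a call in the same direction, and 6 changed direction and were called. Values past the threshold in neither fit were counted as unchanged even where their sign turned. By this count 28 of the 110 comparisons of a gene were touched. The number of the 10 genes called in either direction stayed within 1.5 times its value in each comparison, but its split did not, bre1Δ against WT at day 1 moving to 5 higher and 1 lower (3 and 5 with TMM) with library size only. MET3 in set2Δ against WT at day 1 (-0.03) became 0.34 with library size only and 0.33 or 0.35 with limma on log2(FPKM + 1) or log2(FPKM + 0.1). MET2 in bre1Δ against WT at day 4 (-0.0005) became 0.27 with library size only and 0.26 in both limma fits. Library size scaling raised the all-gene median log2 difference from WT, at day 4 to 0.31 in bre1Δ (0.04 with TMM) and 0.16 in set2Δ (-0.10), and at day 1 to 0.32 and 0.35. With it, 3606 of all genes were higher and 1215 lower in bre1Δ than in WT at day 1, against 2263 and 2261 with TMM; for set2Δ at day 1 the split was 3792 and 1327, against 2393 and 2497. DESeq2 added 2 calls (MET10 and MET2 in set2Δ, day 4 against day 1) and removing the filter changed none. With the replicate block, 2 further values were called, SAM1 in WT at day 4 against day 1 (0.27, adjusted p = 0.0441) and MET17 in the set2Δ minus WT day effect (0.41, adjusted p = 0.0425), and no other call changed; every library correlated best with its own number only for bre1Δ and WT at day 1. Of the 10 genes MET16 had the lowest level in any library (7.07 CPM), and low counts carry more counting error. For the listed genes of sulfur metabolism outside the 10, 361 values were called. Of these, 305 were called in every setting compared and 56 were lost in some setting, and 2 took the opposite direction in some setting.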
